A study of Rattus norvegicus with 2 samples.

Results

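The genes described here encode the enzymes and small proteins that handle glutathione, thioredoxin and reactive oxygen in rat sympathetic neurons. They were chosen by gene symbol among probe sets that the platform annotation assigns to exactly 1 symbol: the glutathione transferases and peroxidases, peroxiredoxins, thioredoxins and their relatives, glutaredoxins, superoxide dismutases, catalase, the enzymes of glutathione synthesis, heme oxygenases, sulfiredoxin and metallothioneins. The rule found 63 genes, measured by 69 probe sets, out of 10411 genes on the array, and the brightest probe set stood for a gene. Of 2 Affymetrix arrays (Rat Expression Set 230A), 1 held RNA of neurons from co-culture and 1 RNA of neurons alone. Neurons from co-culture had been grown with myocytes, a target of these nerve cells, and neurons alone were cultured without that target. The protocol has neurons lifted with an EDTA wash off cultures that hold myocytes or other flat cells, and it does not say whether neurons alone were harvested in the same way. The sources used here give no strain or age of the animals. For the co-culture array the free-text description speaks of neurons grown alone, against that sample's title and source name, which set the groups here. With 1 array per group there was no replicate check and no test, and every value compares these arrays.

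Cells remove peroxides mainly through a pair of thiol systems, as textbook background. In the glutathione system a tripeptide made by glutamate-cysteine ligase and glutathione synthetase donates electrons to glutathione peroxidases, transferases and glutaredoxins, and glutathione reductase restores it. In the thioredoxin system thioredoxin reductase keeps thioredoxin reduced, and thioredoxin in turn feeds the peroxiredoxins. Superoxide dismutases turn superoxide into hydrogen peroxide, which catalase also breaks down. Neurons that make catecholamines, as sympathetic neurons do, form hydrogen peroxide when monoamine oxidase degrades the transmitter. Many of these genes are targets of the transcription factor NRF2 (Nfe2l2), which binds antioxidant response elements.

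Most antioxidant genes were at similar levels on both arrays. A gene counted as measured if its probe set was at or above the array median (175.0 in neurons from co-culture, 185.7 in neurons alone) on at least 1 array, and 51 of the 63 genes were. Their log2 ratios of co-culture over alone lay between -0.68 and 0.43, with a median of 0.07 against -0.01 over all 6368 measured genes. The middle 50% of the antioxidant genes, from the first to the third quartile, spanned -0.08 to 0.19, against -0.19 to 0.14 for all genes. None was at least 1.5-fold higher (background 1.93% of all measured genes), and 1, the transferase gene Gstm7, was at least 1.5-fold lower (background 3.3%). No measured member reached 2-fold in either direction, against 0.314% of all genes higher and 0.628% lower. Smaller steps were chosen after the values were seen. At 1.25-fold, counted first, 4 members were higher (7.84%, background 8.54%) and 4 lower (7.84%, background 12.8%). At 1.2-fold, counted next, 7 members were higher (13.7%, background 12.0%) and 6 lower (11.8%, background 17.3%), shares near or below the background. The 7 higher ones at 1.2-fold were Gpx1, Glrx, Txnip, Txndc12, Prdx5, Gstk1 and Gss, and the 6 lower ones were Gstm7, Prdx6, Gclc, Gstm2, Mt2A and Sod3. Gstk1 passed the filter only through neurons from co-culture and Gstm7 only through neurons alone, in each case the array on which it is higher.

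The direction of small ratios depended on how the arrays were put on one scale. As deposited, 31 of the 51 were higher (60.8%, background 47.3%) and 20 lower (39.2%, background 52.7%). Bright genes as a whole leaned upward: in the brightest of 4 signal classes 63.2% of all genes were higher, and 17 of the antioxidant genes, 14 of them higher, belonged to that class. With all genes weighted to the signal classes of the antioxidant genes, 52.0% were higher and 25.3% lay past 1.2-fold in either direction, against 25.5% of the antioxidant genes. Scaling to the spiked hybridization controls moved the median of all genes to -0.12, a shift of more than 0.1, and under it 22 of the 51 were higher, whereas median scaling gave 40. Altogether 33 genes, 22 higher and 11 lower, had the same sign as deposited and under quantile normalization, median scaling, lowess correction, trimmed-mean scaling and spiked-control scaling. The spread of 1 probe set's log2 ratio was taken from 749 genes with several measured probe sets. It was 0.34 (SD) in the dimmest signal class, 0.29 in the second, 0.25 in the third and 0.25 in the brightest. The probe sets of a gene come from the same 2 arrays, so this SD leaves out variation between cultures or arrays that they share. Of the 51 genes, 12 lay beyond 1 such SD from 0, a share near the 23.9% of all measured genes. Prdx6 and Gstm7 were the 2 genes beyond 2 SD, a share near the 4.44% of all measured genes.

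**Figure D1:**
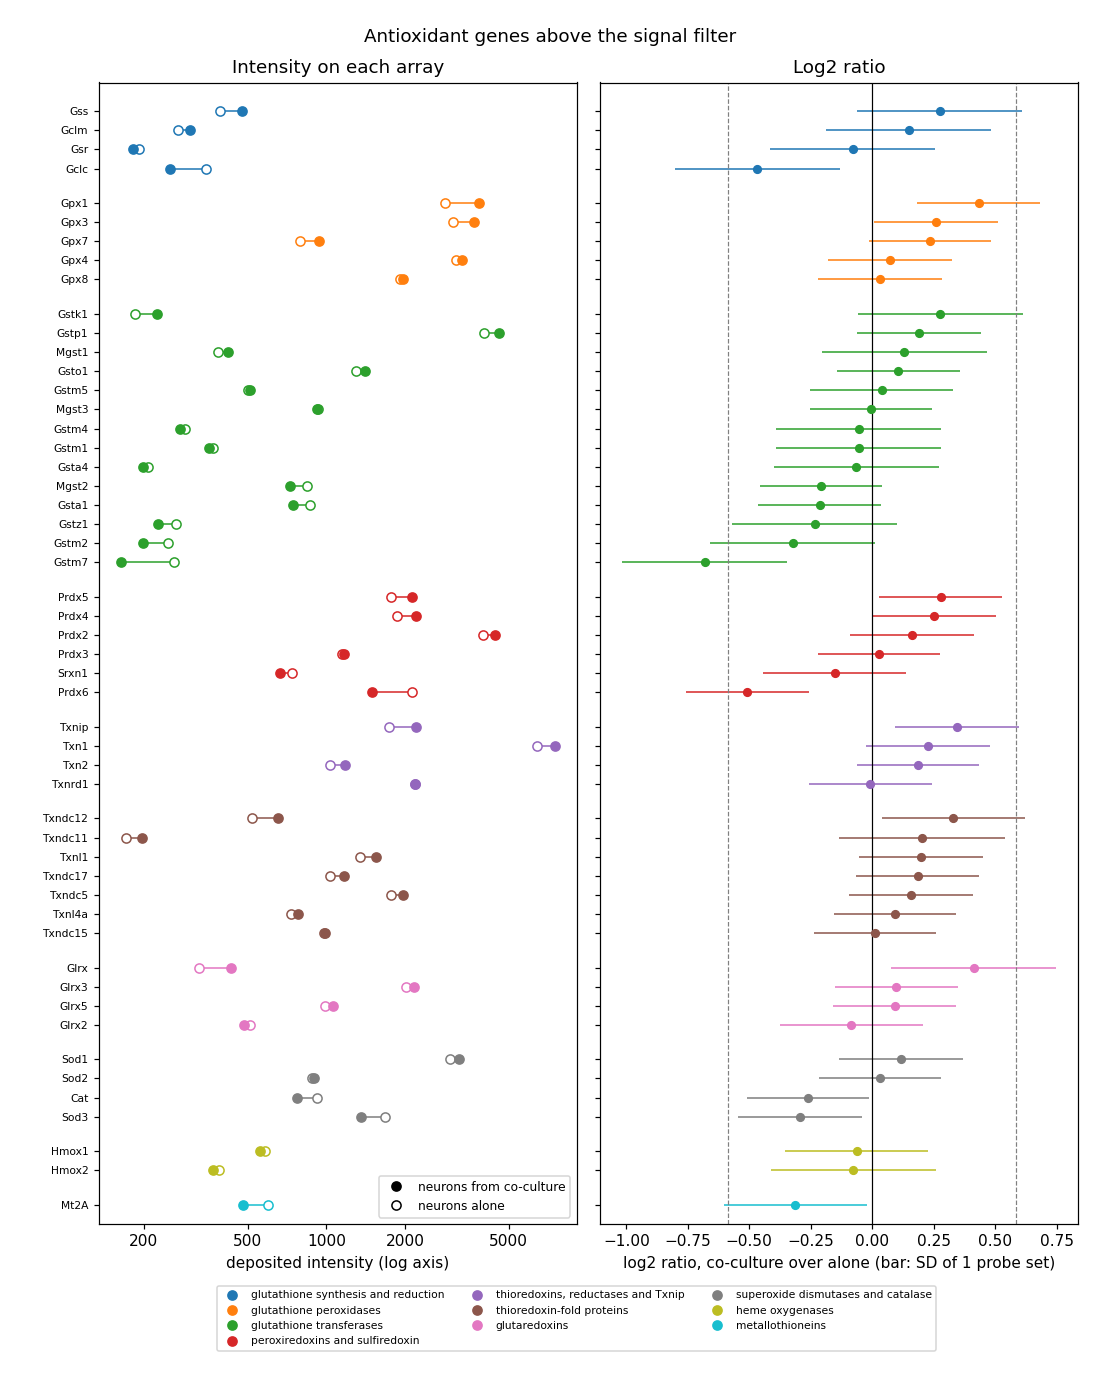
Deposited intensity on each array (left, log axis; filled circles, neurons from co-culture; open circles, neurons alone) and log2 ratio, co-culture over alone (right; bars, SD of 1 probe set at that signal; dashed lines, 1.5-fold) for the 51 measured antioxidant genes, coloured by role. Gstm7, at -0.68, is the gene beyond a dashed line, and Gpx1, at 0.43, has the highest ratio.

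Marker genes of the cells on the arrays moved in part, and their part in the values below was not tested. All 9 measured markers of sympathetic neurons were lower, with a summed intensity of 25144 in neurons from co-culture and 31487 in neurons alone. Their ratios ran from Slc6a2, 2.54-fold lower, to Prph, 1.09-fold lower. The 12 fibroblast and smooth muscle markers summed to 42008 in neurons from co-culture and 39620 in neurons alone, with 8 higher and 4 lower. Single ones moved further than the sum: Dcn was 2.13-fold, Lum 1.75-fold and Postn 1.41-fold higher, and Acta2 was 1.39-fold lower. The 8 glial markers summed to 2792 in neurons from co-culture and 2668 in neurons alone. Among them S100b was 1.99-fold and Erbb3 1.44-fold higher and Glul 1.31-fold lower. Erbb3, at 160 in neurons alone, passed the filter only through neurons from co-culture. The 8 macrophage markers summed to 1634 in neurons from co-culture and 1840 in neurons alone. Of the 5 above the filter, 1, Cd14, was higher (1.13-fold) and 4 were lower. Among the lower ones, Csf1r (1.45-fold) and Aif1 (1.27-fold) passed the filter only through neurons alone. Hbb, the 1 measured marker of red blood cells, had 2051 in neurons from co-culture and 950.02 in neurons alone (2.16-fold higher, log2 ratio from 1.00 to 1.20 over the scalings). The 11 cardiac markers summed to 1669 in neurons from co-culture and 1259.9 in neurons alone, and 4 of them were above the filter. Of these, Nppb was 1.72-fold, Tnnt2 1.39-fold and Nppa 1.13-fold higher, and Pln was 1.02-fold lower. Nppb and Nppa passed the filter only through neurons from co-culture. Among the cardiac markers below the filter, Myl2 was 2.99-fold, Myh6 1.81-fold and Myh7 1.76-fold higher, with values under 39.6 set to that floor. Ttn was 1.54-fold and Myl7 1.02-fold lower, and Tnni3 and Ryr2 were under the floor on both arrays. In neurons alone Myl2, at 44.8, was close to the floor and Myh7, at 18.3, was under it. None of the 6 endothelial markers was above the filter. The RNA is that of mixed cells in bulk, so fewer cells of a type and less RNA per cell cannot be told apart.

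The subunits of glutamate-cysteine ligase, which makes the first and rate-limiting step of glutathione synthesis, went apart. Gclc, the catalytic subunit, had an intensity of 251 in neurons from co-culture and 347 in neurons alone, 1.38-fold lower. Its second probe set was lower too, with 225 in neurons from co-culture and 271 in neurons alone (log2 ratio -0.27). Gclm, the modifier subunit that raises the activity of the catalytic one, had 300.4 in neurons from co-culture and 271 in neurons alone, 1.11-fold higher. The log2 ratio of Gclc minus that of Gclm was -0.62, 1.30 times the SD expected of a difference between 2 probe sets (0.47). Scaling each array by 1 factor cancels in a difference of 2 genes, and the intensities of Gclc and Gclm are alike. That the difference stayed at -0.62 under every scaling was thus largely fixed in advance. The pair is 1 of 8, all chosen after the values were seen. It uses the brighter probe set of Gclc, the one with the lower ratio. Gss, glutathione synthetase, which adds the last residue, had 475 in neurons from co-culture and 393 in neurons alone (1.21-fold higher). Gsr, the reductase that recycles oxidized glutathione, was dim, with 181 in neurons from co-culture and 191 in neurons alone, a log2 ratio of -0.08 that was 0.01 under median scaling and lowess. In this group of 4, the subunits of 1 enzyme therefore lay on opposite sides of 0.

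The promoters of both subunits are shown because, within the window used here, they differ in matches to the motif for NRF2. Sequences are from RefSeq, build GRCr8, 5′ to 3′ on the gene's strand, from 250 bases before to 50 after the annotated start, and capitals mark each match on either strand to an antioxidant response element (TGACNNNGC) or a metal response element (TGCACNC or TGCGCNC). Gclm lies at chr2:213031885-213032184, plus strand, and Gclc at chr8:87510226-87510525, plus strand.
Gclm: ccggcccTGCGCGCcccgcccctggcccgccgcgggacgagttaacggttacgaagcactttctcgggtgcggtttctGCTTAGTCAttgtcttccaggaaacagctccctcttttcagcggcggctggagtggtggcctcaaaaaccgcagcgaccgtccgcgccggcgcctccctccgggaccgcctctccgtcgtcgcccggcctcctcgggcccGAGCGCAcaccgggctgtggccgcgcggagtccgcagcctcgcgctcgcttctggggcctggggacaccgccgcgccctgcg
Gclc: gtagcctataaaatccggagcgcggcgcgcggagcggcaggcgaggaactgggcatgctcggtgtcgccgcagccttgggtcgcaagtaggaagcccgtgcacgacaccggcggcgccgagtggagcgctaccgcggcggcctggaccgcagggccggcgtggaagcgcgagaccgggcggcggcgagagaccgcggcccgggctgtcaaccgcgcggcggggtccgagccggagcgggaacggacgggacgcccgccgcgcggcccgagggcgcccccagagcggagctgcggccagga
Gclm held an antioxidant response element whose first base was 172 bases before the start, and metal response elements at 243 and 32 bases before it. Gclc held neither motif in this window, and sequence outside it was not searched. The part of the motif in either ratio was not tested. Promoter sequences matched 54 of the 63 genes, and Prdx6, Hmox1, Txnip, Sod3 and Gsr were among those without one. Of the 54, 18 (33.3%) held the antioxidant motif, against 12.2% of all 27455 promoters and 15.3% of the 5370 promoters of measured genes. The metal motif was in 17 of the 54 (31.5%), against 25.0% of all promoters and 38.2% of those of measured genes. By ratio, 14 measured genes with the antioxidant motif had a median log2 ratio of 0.09 with 9 of 14 higher, and 30 without it 0.10 with 20 of 30 higher. A match of letters is a description and no binding site.

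Glutathione peroxidases, a family named for members that reduce peroxides at the expense of glutathione, had the highest median of the groups as deposited. All 5 measured members had positive log2 ratios as deposited (median 0.23, from 0.13 to 0.32 over the scalings), and 3 of the 5 stayed positive under every scaling. Of all measured genes 47.3% were higher, and 63.2% in the brightest signal class, which holds 4 of these 5 genes. Gpx1, the general selenium-containing peroxidase of cytosol and mitochondria, had 3845 in neurons from co-culture and 2847 in neurons alone. That was 1.35-fold higher, the highest ratio of the measured antioxidant genes as deposited, with 95.6% of measured genes at or below it, and 0.33 to 0.52 on the log2 scale over the scalings. Gpx3, the secreted form, had 3668 in neurons from co-culture and 3064 in neurons alone (log2 ratio 0.26, just short of the 1.2-fold step). Gpx7, a peroxidase of the endoplasmic reticulum, had 935 in neurons from co-culture and 795 in neurons alone (1.18-fold higher). Gpx8, its membrane-bound relative, had 1959 in neurons from co-culture and 1917 in neurons alone, a log2 ratio of 0.03 that was -0.07 under spiked-control scaling and just below 0 under lowess. Gpx4, which reduces lipid peroxides within membranes and guards against ferroptosis, had 3302 in neurons from co-culture and 3140.4 in neurons alone, a log2 ratio of 0.07 that was -0.03 under spiked-control scaling. The 5 measured peroxidase genes were thus on the same side of 0 as deposited, but none was past 1.5-fold. Gpx2, known from gut epithelium, and Gpx6, known from olfactory tissue, were below the filter on both arrays.

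Glutathione transferases, which attach glutathione to electrophiles such as products of lipid oxidation, were mixed, with 5 of 14 measured genes higher and 9 lower (median -0.05). The background was 47.3% of all measured genes higher, and 41.3% in the dimmest signal class, which holds most of these genes. The median of the transferases changed sign with the scaling, from -0.16 under spiked-control scaling to 0.03 under median scaling. Gstp1, the pi-class enzyme, had 4599.7 in neurons from co-culture and 4032 in neurons alone (1.14-fold higher). Gstk1, the kappa-class enzyme of mitochondria and peroxisomes, had 224 in neurons from co-culture and 185.0 in neurons alone (1.21-fold higher). Gstk1 passed the filter only through neurons from co-culture. Gsto1, an omega-class thiol reductase, had 1404 in neurons from co-culture and 1304 in neurons alone (1.08-fold higher). Gstz1, which also acts in tyrosine breakdown, had 227 in neurons from co-culture and 267 in neurons alone (1.18-fold lower). Gsta1, of the alpha class, had 744 in neurons from co-culture and 863 in neurons alone (1.16-fold lower), and Gsta4, which clears the lipid peroxidation product hydroxynonenal, had 198 and 207 in the same order (log2 ratio -0.06, or 0.02 under quantile, median and lowess scaling). Of the microsomal enzymes, Mgst1 was 1.09-fold higher with 419.6 in neurons from co-culture and 383 in neurons alone. Mgst2, which can make leukotriene C4, was 1.15-fold lower with 729 in neurons from co-culture and 841 in neurons alone. Mgst3 had 924 in neurons from co-culture and 927 in neurons alone. The mu class and the microsomal enzymes each held genes on either side of 0, and the 2 measured members of the alpha class were both lower as deposited.

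The mu class held Gstm7, the gene with the largest difference among the members above the filter. Gstm7 had 163 in neurons from co-culture and 262 in neurons alone, 1.60-fold lower, with a log2 ratio from -0.79 to -0.59 over the scalings. Its signal was under the array median in neurons from co-culture, and 2.12% of measured genes had a ratio at or below its own. Gstm2 had 198 in neurons from co-culture and 248 in neurons alone (1.25-fold lower). Gstm1 (356 in neurons from co-culture, 369 in neurons alone) and Gstm4 (276 in neurons from co-culture, 287 in neurons alone) each had a log2 ratio of -0.05 that was positive under quantile, median and lowess scaling. Gstm5 had 512 in neurons from co-culture and 499 in neurons alone, a log2 ratio of 0.04 that was -0.07 under spiked-control scaling. The log2 ratio of Gstm7 minus that of Gstm5 was -0.72 (SD 0.44 for a pair of probe sets). Over the scalings it was -0.67 at its smallest, and only quantile and lowess scaling can change such a difference. The pair was chosen after the values were seen. All of these genes, with Gstm3, which was at the floor on both arrays, are neighbours in a cluster on rat chromosome 2, and Gstm5 and Gstm7 lie at the same end of it with 1 gene, Gstm6l, between them. Mu-class genes are close in sequence, so how far a probe set of one reads another was not tested.

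Promoters of Gstm7, the member past 1.5-fold among those above the filter, and of its neighbour Gstm5, which was near 0, are shown with the same marks. Gstm7 lies at chr2:198260270-198260569, minus strand, and Gstm5 at chr2:198219519-198219818, plus strand, both on build GRCr8.
Gstm7: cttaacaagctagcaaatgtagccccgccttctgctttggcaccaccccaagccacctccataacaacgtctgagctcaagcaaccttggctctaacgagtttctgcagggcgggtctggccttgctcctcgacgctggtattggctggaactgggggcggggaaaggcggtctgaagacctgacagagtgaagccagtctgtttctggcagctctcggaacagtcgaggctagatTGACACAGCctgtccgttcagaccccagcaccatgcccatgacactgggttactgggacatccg
Gstm5: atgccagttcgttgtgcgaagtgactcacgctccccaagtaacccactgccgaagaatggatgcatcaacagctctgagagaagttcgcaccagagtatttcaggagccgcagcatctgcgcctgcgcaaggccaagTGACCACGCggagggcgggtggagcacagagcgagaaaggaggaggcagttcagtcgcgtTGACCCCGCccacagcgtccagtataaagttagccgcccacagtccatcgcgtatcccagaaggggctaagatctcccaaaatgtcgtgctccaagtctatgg
Gstm7 held 1 antioxidant response element, 14 bases before the start, and Gstm5 held 2, at 113 and 53 bases before it. Both promoters thus held the motif, and its part in either ratio was not tested.

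**Figure D2:**
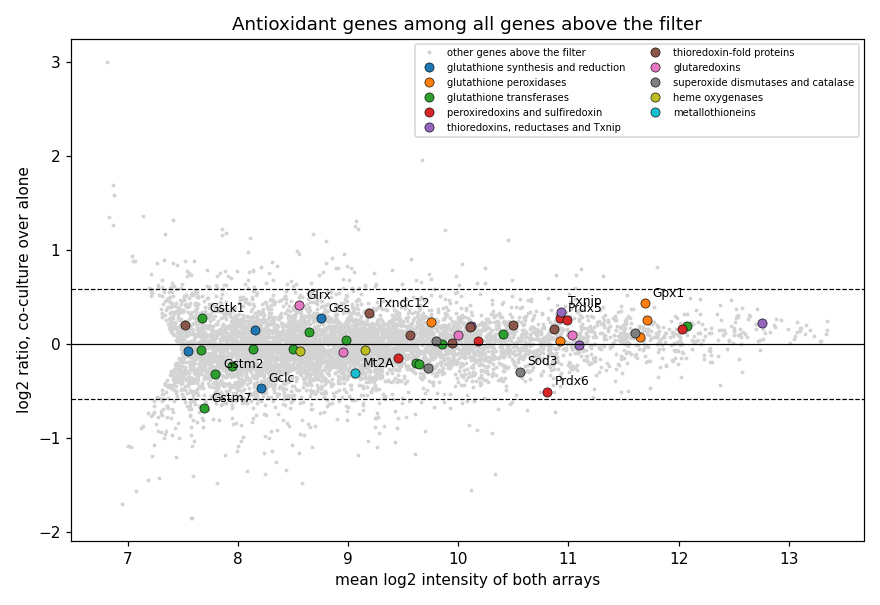
Log2 ratio (co-culture over alone) against the mean log2 intensity of both arrays for the measured antioxidant genes (coloured by role) and all other measured genes (grey); dashed lines mark 1.5-fold and genes past 1.2-fold are named. The antioxidant genes lie between -0.68 and 0.43, inside the cloud of the other genes.

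Peroxiredoxins, which reduce peroxides with electrons from thioredoxin, also split. Prdx2, a cytosolic form abundant in neurons, had 4437 in neurons from co-culture and 3964 in neurons alone (1.12-fold higher). Prdx4, the form of the endoplasmic reticulum, had 2212 in neurons from co-culture and 1859 in neurons alone (1.19-fold higher). Prdx5, found in mitochondria, peroxisomes and cytosol, had 2137 in neurons from co-culture and 1762 in neurons alone (1.21-fold higher). These genes kept a positive ratio under every scaling, while Prdx3, the mitochondrial form (1167 in neurons from co-culture, 1146 in neurons alone), had a log2 ratio of 0.03 that was -0.08 under spiked-control scaling. Prdx6 went the other way. It had 1498 in neurons from co-culture and 2130.1 in neurons alone, 1.42-fold lower (log2 ratio -0.51, from -0.61 to -0.42 over the scalings). Prdx6 differs from its relatives in that it is reduced by glutathione, with the help of Gstp1, and has a phospholipase activity. The log2 ratio of Prdx6 minus that of Prdx5 was -0.79, 2.21 times the SD of a difference between 2 probe sets. Against Prdx2 it was -0.67, 1.89 times that SD. Both pairs were chosen after the values were seen. Prdx5 and Prdx6 have the highest and the lowest ratio of the measured peroxiredoxins, so a wide gap follows from that choice. Srxn1, sulfiredoxin, which repairs overoxidized peroxiredoxins, had 665 in neurons from co-culture and 739.6 in neurons alone (1.11-fold lower).

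Of the 4 measured genes of the thioredoxin system, 3 were slightly higher and 1 was close to 0. The background was 47.3% of all measured genes higher, and 63.2% in the brightest signal class, which holds Txn1, Txnip and Txnrd1. Txn1, cytosolic thioredoxin, had 7504 in neurons from co-culture and 6415 in neurons alone (1.17-fold higher), and Txn2, its mitochondrial counterpart, had 1179.7 in neurons from co-culture and 1037 in neurons alone (1.14-fold higher). Txnip, which binds thioredoxin, holds it inactive and responds to glucose, had 2199 in neurons from co-culture and 1731 in neurons alone (1.27-fold higher, log2 ratio from 0.24 to 0.43 over the scalings). Txnrd1, the cytosolic reductase, did not move with them, with 2176 in neurons from co-culture and 2188 in neurons alone, and 1258 and 1364 in the same order on its second probe set (log2 ratio -0.12). The log2 ratio of Txnrd1 minus that of Txn1 was -0.23, under 1 SD of a pair of probe sets (0.36). The mitochondrial reductase Txnrd2 was below the filter, with 146 in neurons from co-culture and 157 in neurons alone. Its log2 ratio of -0.11 was -0.003 under quantile normalization. Txnrd3, the reductase best known from testis, was below the filter as well, with 27.6 in neurons from co-culture and 156 in neurons alone. With values under 39.6 set to that floor its log2 ratio was -1.98, and among genes below the filter 1.95% were at least 2-fold lower on the floored scale. It was measured by 1 probe set.

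Proteins with a thioredoxin fold, some of which have roles outside peroxide removal, had positive ratios in all 7 measured genes as deposited (median 0.185, 0.08 under spiked-control scaling) and in 5 of 7 under spiked-control scaling. The share of all measured genes with positive ratios was 47.3%, or 52.0% weighted to the signal of the antioxidant genes, and 1 of the 7, Txnl1, was positive on its brightest probe set but not on another. Txndc12, a thiol oxidase of the endoplasmic reticulum, had 655 in neurons from co-culture and 521 in neurons alone (1.26-fold higher). Txndc5, a disulfide isomerase of the same compartment, had 1973 in neurons from co-culture and 1769.6 in neurons alone (1.12-fold higher), and Txndc11, another protein of that compartment, 196 and 170.4 in the same order (1.15-fold higher). Txndc11 passed the filter only through neurons from co-culture, where it is higher, so its positive sign is tied to its entry. Txndc17, a small cytosolic reductase, had 1172 in neurons from co-culture and 1031 in neurons alone (1.14-fold higher). Txndc15 (986 in neurons from co-culture, 979.6 in neurons alone) and the splicing factor gene Txnl4a (781 in neurons from co-culture, 732 in neurons alone) had ratios of 0.01 and 0.09 on the log2 scale that turned negative under spiked-control scaling. Txnl1, a thioredoxin-like protein of the proteasome, was undecided: its brightest probe set had 1551 in neurons from co-culture and 1351 in neurons alone (log2 ratio 0.20), another had 929 and 1152 in the same order (-0.31), and the third was at the floor on both arrays. The direction of Txnl1 therefore rests on the choice of probe set.

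Glutaredoxins, which reduce mixed disulfides with glutathione, were near 0 but for Glrx. Glrx, the cytosolic form, had 432 in neurons from co-culture and 324 in neurons alone (1.33-fold higher). Its second probe set had 341.5 in neurons from co-culture and 307 in neurons alone (log2 ratio 0.16). Both probe sets of Glrx were thus higher as deposited. The iron-sulfur cluster proteins Glrx3 (2164 in neurons from co-culture, 2020.4 in neurons alone) and Glrx5 (1056 in neurons from co-culture, 992 in neurons alone) were each 1.07-fold higher, with log2 ratios of -0.007 and -0.015 under spiked-control scaling. Glrx2, of mitochondria and nucleus, had 482 in neurons from co-culture and 511 in neurons alone, a log2 ratio of -0.08 that was just above 0 under median scaling.

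Of the superoxide dismutases, the extracellular form was lower and the others were close. Sod1, of the cytosol, had 3236 in neurons from co-culture and 2983 in neurons alone (1.08-fold higher), and Sod2, of mitochondria, had 899 and 879 in the same order (1.02-fold higher, or a log2 ratio of -0.07 under spiked-control scaling). Sod3, the extracellular form, had 1362 in neurons from co-culture and 1671 in neurons alone (1.23-fold lower), lower under every scaling. Catalase, Cat, of the peroxisome, had 771 in neurons from co-culture and 923 in neurons alone (log2 ratio -0.26, just short of the 1.2-fold step), also lower under every scaling. Cat and Gpx1 both remove hydrogen peroxide, and the log2 ratio of Cat minus that of Gpx1 was -0.69, 1.96 times the SD of a pair of probe sets. That pair was chosen after the values were seen, and Gpx1 has the highest ratio of the measured antioxidant genes. The secreted enzymes were not of one direction, since Gpx3 was higher and Sod3 lower. The 4 measured genes whose products act in mitochondria alone (Prdx3, Txn2, Glrx5 and Sod2) had log2 ratios from 0.03 to 0.19 as deposited, and 1 of the 4 was positive under spiked-control scaling.

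The heme oxygenases were close to 0 and Mt2A, the 1 measured metallothionein, was lower. Hmox1, the heme oxygenase that oxidants induce, had 557 in neurons from co-culture and 582 in neurons alone (log2 ratio -0.06), and Hmox2, its constitutive relative, had 368 and 388 in the same order (-0.08). Both ratios became positive, at 0.02 and 0.01, under median scaling. Mt2A, a metallothionein that binds zinc and copper and is induced by metals and glucocorticoids, had 479 in neurons from co-culture and 595 in neurons alone (1.24-fold lower, and lower under every scaling). Mt1, on its probe set with 1 symbol, was under the floor on both arrays, with 5.91 in neurons from co-culture and 5.57 in neurons alone. Mt3, the metallothionein of the nervous system, was below the filter with 45.1 in neurons from co-culture and 47.1 in neurons alone. The promoter of Mt2A is shown because it holds the most metal response elements of a measured member, and lies at chr19:10838659-10838958, minus strand of GRCr8.
Mt2A: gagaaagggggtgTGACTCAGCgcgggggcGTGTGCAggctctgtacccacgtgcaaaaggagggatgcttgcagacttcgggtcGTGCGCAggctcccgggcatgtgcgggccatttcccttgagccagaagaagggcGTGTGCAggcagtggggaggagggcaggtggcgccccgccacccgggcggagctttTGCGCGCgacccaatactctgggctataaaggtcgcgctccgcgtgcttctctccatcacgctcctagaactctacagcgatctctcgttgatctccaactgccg
It held 4 metal response elements, at 220, 165, 111 and 55 bases before the start, and 1 antioxidant response element at 237. The 13 measured genes with the metal motif, Mt2A included, had a median log2 ratio of 0.13 and 9 of 13 were higher, against 0.09 and 20 of 31 for genes without it.

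**Figure D3:**
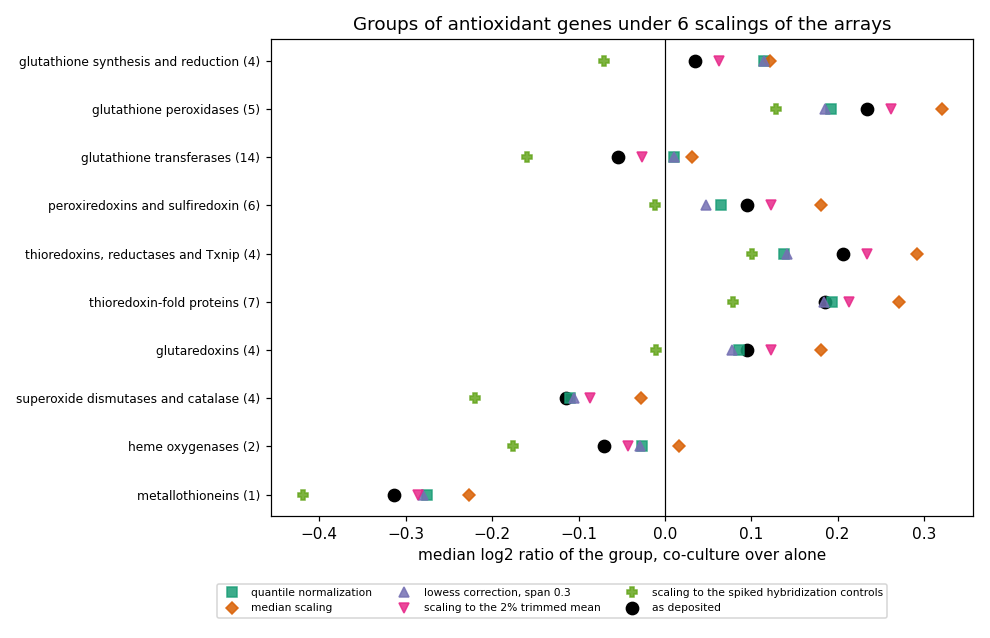
Median log2 ratio for each role, co-culture over alone, with the number of measured genes in brackets, as deposited (black circles) and under 5 other scalings. The medians of the peroxidases, the thioredoxin system and the thioredoxin-fold proteins are positive under each scaling shown, the metallothionein Mt2A and the group of superoxide dismutases and catalase are negative under each, and the other groups cross 0.

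In 6 lists of pathways around these enzymes 2 of 56 measured genes were past 1.5-fold, both higher, against a background of 1.93% of all measured genes higher and 3.3% lower. Of 18 measured NRF2 regulators and further targets, 10 were higher and 8 lower (median 0.02, or -0.08 under spiked-control scaling), and 1 was past 1.5-fold. That gene was Ephx1, microsomal epoxide hydrolase, with 404 in neurons from co-culture and 239 in neurons alone (1.69-fold higher). Nfe2l2 itself had 881 in neurons from co-culture and 962 in neurons alone (1.09-fold lower), and Keap1, which targets its product for degradation, had 236 and 307 in the same order (1.30-fold lower). Other NRF2 targets went both ways: the quinone reductase gene Nqo1 had 1900.0 in neurons from co-culture and 2293 in neurons alone (1.21-fold lower), Sqstm1, an autophagy receptor, had 1961 and 2333 in the same order (1.19-fold lower), and Tkt, transketolase of the pentose phosphate pathway, had 2448 and 1977.5 (1.24-fold higher). Ugdh, which makes glucuronic acid donors, was 1.11-fold higher, with 2324 in neurons from co-culture and 2101 in neurons alone.

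Of 10 measured genes of glutathione turnover and cysteine supply, none was past 1.5-fold, with 6 higher and 4 lower. Their highest ratio was that of Oplah, which recycles oxoproline, at 1.47-fold higher with 201 in neurons from co-culture and 137 in neurons alone. Oplah was under the array median in neurons alone and counted as measured only through neurons from co-culture, where it is higher. Ahcy, which frees homocysteine for cysteine synthesis, had 1450.3 in neurons from co-culture and 1168 in neurons alone (1.24-fold higher). Glo1, the glyoxalase that uses glutathione to clear methylglyoxal, had 1889 in neurons from co-culture and 1940.3 in neurons alone. Of 9 genes on the array listed as sources of superoxide and peroxide, 2 were measured: Cyba, a subunit of NADPH oxidases (1092 in neurons from co-culture, 848 in neurons alone, 1.29-fold higher), and Maoa, monoamine oxidase A (1018 in neurons from co-culture, 848 in neurons alone, 1.2-fold higher). The genes Cybb and Ncf1, of the phagocyte oxidase, were below the filter.

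Several peroxidases and thioredoxin reductases contain selenocysteine, whose synthesis needs its own genes. Of 12 measured genes of selenoprotein synthesis and further selenoproteins, 8 were higher and 4 lower with none past 1.5-fold (median 0.05, or -0.06 under spiked-control scaling). Sephs2, which makes the selenium donor, was 1.42-fold lower, with 218 in neurons from co-culture and 310.2 in neurons alone. Selenof, of the endoplasmic reticulum, had 2208 in neurons from co-culture and 1774 in neurons alone (1.24-fold higher), Selenom, of the same compartment, had 1976 and 1642 in the same order (1.2-fold higher), and Selenow, a small cytosolic selenoprotein, had 1436 and 1757 in the same order (1.22-fold lower). Selenoprotein genes therefore lay on both sides of 0.

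Among 9 measured genes of copper, iron and zinc handling, Slc39a1, a zinc importer, was past 1.5-fold, with 1603 in neurons from co-culture and 913 in neurons alone (1.76-fold higher, log2 ratio from 0.71 to 0.90 over the scalings). Mtf1, the factor that binds metal response elements, had 279 in neurons from co-culture and 265 in neurons alone (1.05-fold higher, or a log2 ratio of -0.03 under spiked-control scaling). The zinc exporter gene Slc30a1 was below the filter. In the last list, of peroxisome genes and the oxidant sensor DJ-1, 5 genes were measured and none was past 1.5-fold. DJ-1 itself, Park7, had 1349 in neurons from co-culture and 1146 in neurons alone (1.18-fold higher), and the mitochondrial carrier gene Ucp2 had 895 and 1118 in the same order (1.25-fold lower).

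**Figure D4:**
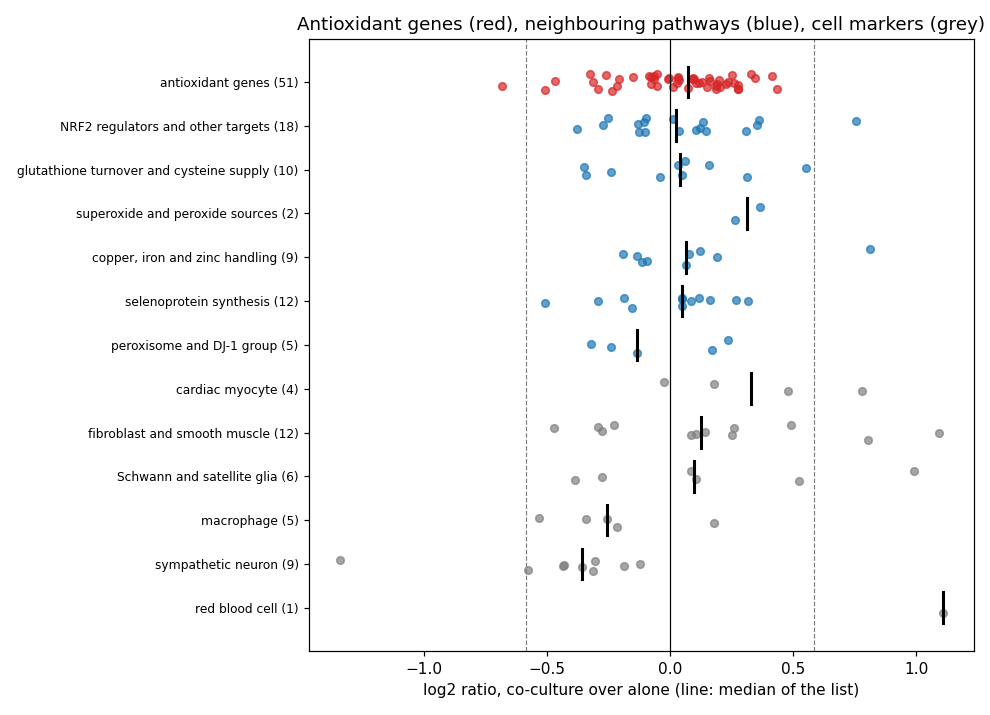
Log2 ratio (co-culture over alone) for the measured antioxidant genes (red), 6 lists of neighbouring pathways (blue) and markers of cell types (grey), with the number of genes in brackets; each point is a gene, black lines are medians and dashed lines mark 1.5-fold. The antioxidant genes have a median of 0.07, and the sympathetic neuron markers, all below 0, have a median of -0.36.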

How the data were processed

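The deposited values are 1 intensity per probe set and array on a linear scale. The authors quantified the arrays with dChip 1.3, per the series' design text. MAS5 is named in the submitters' processing notes. The sources used here do not say which of them gave the deposited intensity, nor its scaling and background steps. Of 15923 probe sets 57 were controls, and of the other 15866, 12783 had 1 gene symbol, 312 several and 2771 none. Symbols were matched through gene identifiers to the GRCr8 RefSeq table, which changed no member's symbol. Intensities were used as deposited, set to at least the pooled 20th percentile (39.6), and log2 ratios of co-culture over alone were formed with Python 3.11.15, numpy 2.4.6 and pandas 2.3.3. A gene passed the filter at or above the array median on 1 array. Signal classes are cut at the quartiles of mean log2 intensity of the 749 genes with several measured probe sets; the SD of 1 probe set is that of the difference between a gene's brightest and next probe set, divided by the square root of 2 (checked with simulated data for the ratios). Every member may be named; of the pathway lists, genes past 1.5-fold and up to 3 of the brightest were named, and other list genes (Nqo1, Nfe2l2, Keap1, Oplah, Sephs2, Mtf1, Cybb, Ncf1, Slc30a1 and the like) were chosen after their values were seen. A fold step of 1.25 and then one of 1.2 were counted after seeing the data. Members and lists were chosen with earlier results of these data known. The number of arrays limits the precision.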

Additional observations from a re-analysis of the deposited data

How the results depend on the processing

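The median log2 ratio of the measured antioxidant genes was 0.07 as reported. It was 0.159 under median scaling, -0.033 under scaling to the spiked controls and 0.027 without a signal filter, when the 12 dim genes count as well, and it stayed within 0.039 of the reported value under the 9 other alternatives. The count of genes at least 1.5-fold higher was 0 under all 12 alternatives. With the smaller steps, chosen after seeing the data, 4 genes were higher and 4 lower at 1.25-fold, and 7 higher and 6 lower at 1.2-fold. The count at least 1.5-fold lower was 1 as reported. It was 2 under scaling to the spiked controls, which added Prdx6, and 2 with no filter, which added Txnrd3. It was 0 with a pseudocount equal to the floor, which shrinks ratios of dim genes, and 0 with the filter at the 75th percentile, which leaves out Gstm7 and keeps 37 genes. Of 597 values of single genes under the alternatives, 595 moved by less than the SD of 1 probe set. The other 2 were Txnl1, at -0.06 with the mean over its probe sets and -0.31 without probe sets shared by several transcripts. Many of the 597 could not move. Another floor, no floor and another filter leave the ratio of a measured gene as it was. Other choices of probe set can change only the 5 members with several. The count is therefore no measure of how stable the ratios are. No paired analysis was possible because each group has 1 array.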

Other observations

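Probe sets assigned to several genes were outside the rule, and 3 of them name an antioxidant gene. The probe set shared by Prdx1, a cytosolic peroxiredoxin, and Prdx1l1 had 5891 in neurons from co-culture and 5666 in neurons alone (log2 ratio 0.06). The probe set shared by the alpha-class transferase genes Gsta5 and Gsta2 had 128 in neurons from co-culture and 131 in neurons alone. The probe set of Mt1f, Ttr and Mt1 was under the floor on both arrays.

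Of the 12 members below the filter, 6 were under the floor on both arrays: the transferase genes Gsta3, Gstm3, Gstt1 and Gstt2, the peroxidase gene Gpx6 and Mt1. Gstt3, of the theta class, had 76.7 in neurons from co-culture and 74.4 in neurons alone, and Gpx2 had 64.1 and 90.2 in the same order. Txnl4b, a relative of the splicing factor Txnl4a, had 131 in neurons from co-culture and 109.7 in neurons alone.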
